A study of Mus musculus with 4 samples.

Results

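The 5 genes described here, Entpd1, Nt5e, Cd38, P2rx7 and Adora2a, act on the nucleotides and NAD that cells release. They were taken by symbol from a table of 32285 mouse genes, and all 5 were present. Their RNA was followed across CD8+ and CD4+ T cells (Tc) and the other cells of the recipient spleen by single-cell RNA-Seq (scRNA-Seq), which counts unique molecular identifiers (UMIs), 1 for each captured RNA molecule.

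When cells are damaged or activated, ATP and NAD reach the extracellular space, where ATP is an alarm signal. CD39, encoded by Entpd1, removes phosphates from ATP and ADP to give AMP, CD73, encoded by Nt5e, converts AMP to adenosine, and CD38 consumes NAD. P2rx7 encodes an ion channel opened by extracellular ATP that on mouse T cells can also be triggered through NAD-dependent ADP-ribosylation by ART2 enzymes, and Adora2a encodes the adenosine receptor of type 2A, which raises cyclic AMP and restrains T cell activation.

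The study asked what loss of the checkpoint receptor TIM-3, encoded by Havcr2, in CD8+ Tc does to donor Tc in leukemia-bearing mice after allogeneic bone marrow transplantation. BALB/c recipients, a strain that differs from the donors at the MHC, were irradiated and given 10000 WEHI-3B cells, a mouse myelomonocytic leukemia line, with C57BL/6 bone marrow, and 200000 donor Tc on day 2. Donor cells carried Havcr2fl/fl;E8icre/+, in which a Cre under the CD8-restricted E8i enhancer deletes the loxP-flanked gene, or Havcr2fl/fl, so the controls carried the floxed alleles too, without Cre. Spleen Tc were enriched with a pan-T kit on day 23 and stained with an oligonucleotide-tagged antibody to H-2Kb, the donor MHC class I type. Cells were not selected by this tag here, so donor and recipient cells were not told apart. Each genotype had 2 libraries. The study gives an age range of young adult mice for its experiments in general, not the age of each mouse, and p-values here measure the spread between these libraries.

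The deposited tables held 15784 barcodes and 142576164 gene UMIs, between 17693991 and 55045903 per library. After filtering, 11507 cells remained, between 1204 and 4328 per library, with median depths between 5232 and 7454.5 UMIs. Any 2 libraries shared between 1 and 10 barcodes. Of the cells, 6809 lay in 11 clusters in which at least 97.9% of cells had a Cd3 UMI. Among these, 4279 held RNA of Cd8a or Cd8b1 but none of Cd4 (CD8 Tc), 1766 the reverse (CD4 Tc), 224 RNA of both and 540 of neither. The remaining 4698 cells, although the label is T cells, lay in clusters in which at most 19.5% had a Cd3 UMI, and were mainly erythroid-like and myeloid-like by their markers. The study also speaks of sorted donor Tc, while the protocol in the labels describes the kit alone, and which of the 2 these libraries went through could not be settled from the sources used here. The targeted gene goes against 1 label. It was measured in TMM-normalised CPM, in which UMIs are scaled to the total of each sum, adjusted by edgeR for its composition. In CD8 Tc, Havcr2 stood at 58.4 and 8.07 in the libraries labelled Havcr2fl/fl;E8icre/+ 1 and 2, against 55.7 and 116 in the Havcr2fl/fl libraries. The library labelled Havcr2fl/fl;E8icre/+ 1 was thus within the control range. The sources used here do not give whether the 3′ tag lies outside the deleted part. Why the 2 Havcr2fl/fl;E8icre/+ libraries differ was not tested.

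Levels below are CPM, in which the UMIs of a gene are added up over all cells of a state or lineage in 1 library and scaled to the UMIs of all genes there. Wherever 4 values stand together, they are in the order Havcr2fl/fl;E8icre/+ replicates 1 and 2, then Havcr2fl/fl replicates 1 and 2. Levels are compared between classes for 1 gene, not between genes. The T cell states are clusters, named from fixed marker lists and built with the 5 genes and Havcr2 left out of the genes used for clustering. Since other genes of the same cells made the clusters, their levels are a description with no test.

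Entpd1 (ENSMUSG00000048120, chr19:40612366-40741602, plus strand, GRCm38, overlapping a sense-intronic gene, AC166063.1, also in the table) was high in exhausted and some effector states and nearly absent from precursor states. In CD8 Tc, the Teff-like cluster (413 cells, with Gzmb, Gzmk and Prf1 raised) had 128.7, 126.4, 84.4 and 116.6 CPM. The terminally exhausted (TTEX)-like cluster (771 cells, with Eomes, Nr4a2, Pdcd1 and Lag3 raised) had 99.1, 108.3, 99.2 and 87.4 CPM. The precursor exhausted (TPEX)-like cluster (572 cells, with Tcf7, Slamf6, Id3 and Il7r raised) had 5.02, 4.91, 10.6 and 2.39 CPM, from 17 UMIs in all. Every Teff-like and TTEX-like value was above every TPEX-like value, while the Teff-like and TTEX-like ranges overlapped. These 2 clusters are not cleanly apart by markers. Of the 7 markers of the Teff list, 5 were also raised in the TTEX-like cluster. Of the 9 of the TTEX list, 3 were raised in the Teff-like cluster and 7 in the TTEX-like cluster itself. Tox and Tigit were not raised there over the other CD8 Tc, while the study counts TOX among the genes of all its exhausted clusters. Nor do the markers part TPEX-like cells from naive or memory cells. Of the naive or memory list, 5 markers were also raised in the TPEX-like cluster. In the short-term effector-like cluster and the precursor-like CD4 cluster, both described below, 4 were raised. The list behind the TPEX name holds none of Pdcd1, Lag3 and Tox. By flow cytometry in another leukemia model, the study reports more CD39 and CD38 protein in precursor exhausted CD8+ Tc after anti-TIM-3 antibody. The values here are RNA, and no library had that treatment.

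The same contrast of Entpd1 levels was seen in CD4 Tc. The Treg-like cluster (109 cells, with Foxp3, Il2ra, Ikzf2 and Ctla4 raised) averaged 123 ± 12.1 CPM (SD, n = 3 libraries with at least 10 such cells). The cytotoxic-like CD4 cluster (283 cells, with Gzmb, Prf1 and Nkg7 raised) had 135.7, 122.1, 53.3 and 74.6 CPM, and the precursor-like CD4 cluster (305 cells, with Tcf7, Slamf6, Id3 and Cd200 raised) had 4.83, 1.27, 0 and 0 CPM, from 2 UMIs. By mean level, the order over T cell clusters was Treg-like, Teff-like, TTEX-like and cytotoxic-like CD4, and each of these overlapped its neighbour in the order. Below them came the resident-like CD8 cluster at 59.7 ± 15.5 CPM (SD, n = 4), named on 3 of 6 markers (Itga1, Cxcr6 and Rgs1), and 3 cycling-like CD8 clusters with means between 40.6 and 58.9 CPM. The short-term effector-like cluster, with Klrg1, Cx3cr1 and Zeb2 raised, had 45.8 ± 22.1 CPM (SD, n = 4). In CD4 Tc the cluster led by Igfbp7 and Serpina3f had 34.3 ± 7.30 CPM, the cluster led by Ifitm1 and Ifitm2 21.3 ± 5.63 CPM and the cycling-like cluster 16.5 ± 6.62 CPM (SD, n = 4 each).

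Nt5e (ENSMUSG00000032420, chr9:88327197-88372092, plus strand, GRCm38) ran largely the other way, except in Treg-like cells. In the TPEX-like cluster its levels were 33.9, 73.6, 23.3 and 35.8 CPM, and in the precursor-like CD4 cluster they were 72.5, 109.2, 50.3 and 89.9 CPM. In the TTEX-like cluster they were 0.583, 3.42, 0 and 1.03 CPM, and in the Teff-like cluster only 1 UMI was counted in 413 cells. No Nt5e UMI was seen in any of the 283 cytotoxic-like CD4 cells, which allows a share of up to 1.06% of cells with a UMI. TPEX-like and precursor-like values lay above those of these 3 clusters in every library. The short-term effector-like cluster was the other CD8 cluster with a clear level, 26.4 ± 9.90 CPM (SD, n = 4), and its range overlapped that of TPEX-like cells. The highest mean was in Treg-like cells, 99.5 ± 30.5 CPM (SD, n = 3), overlapping the precursor-like CD4 range, and the CD4 cluster led by Ifitm1 and Ifitm2 had 40.1 ± 9.67 CPM (SD, n = 4).

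Cd38 (ENSMUSG00000029084, chr5:43868553-43912375, plus strand, GRCm38, overlapping Gm16014 and the antisense gene Gm16015, both in the table) was high in Teff-like and TTEX-like cells, as Entpd1 was. Its levels were 224.8, 197.9, 219.5 and 201.4 CPM in the Teff-like cluster and 183.7, 176.7, 117.8 and 185.1 CPM in the TTEX-like cluster. In the TPEX-like cluster they were 37.6, 26.6, 25.4 and 23.9 CPM, below every value of those 2 clusters. The short-term effector-like cluster had 54.2 ± 13.9 CPM (SD, n = 4), also below every value of those 2 clusters. In all 4 libraries Cd38 was higher in Teff-like than in TTEX-like cells. The resident-like CD8 cluster had 134 ± 21.6 CPM and the cytotoxic-like CD4 cluster 141 ± 43.4 CPM (SD, n = 4 each), with overlapping ranges. Treg-like cells, which stood first in order for Entpd1 and Nt5e, had 42.7 ± 16.6 CPM of Cd38 (SD, n = 3), close to the 42 ± 9.55 CPM of the CD4 cluster led by Igfbp7 and Serpina3f. The precursor-like CD4 cluster had 16.7 ± 13.2 CPM (SD, n = 4).

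**Figure D1:**
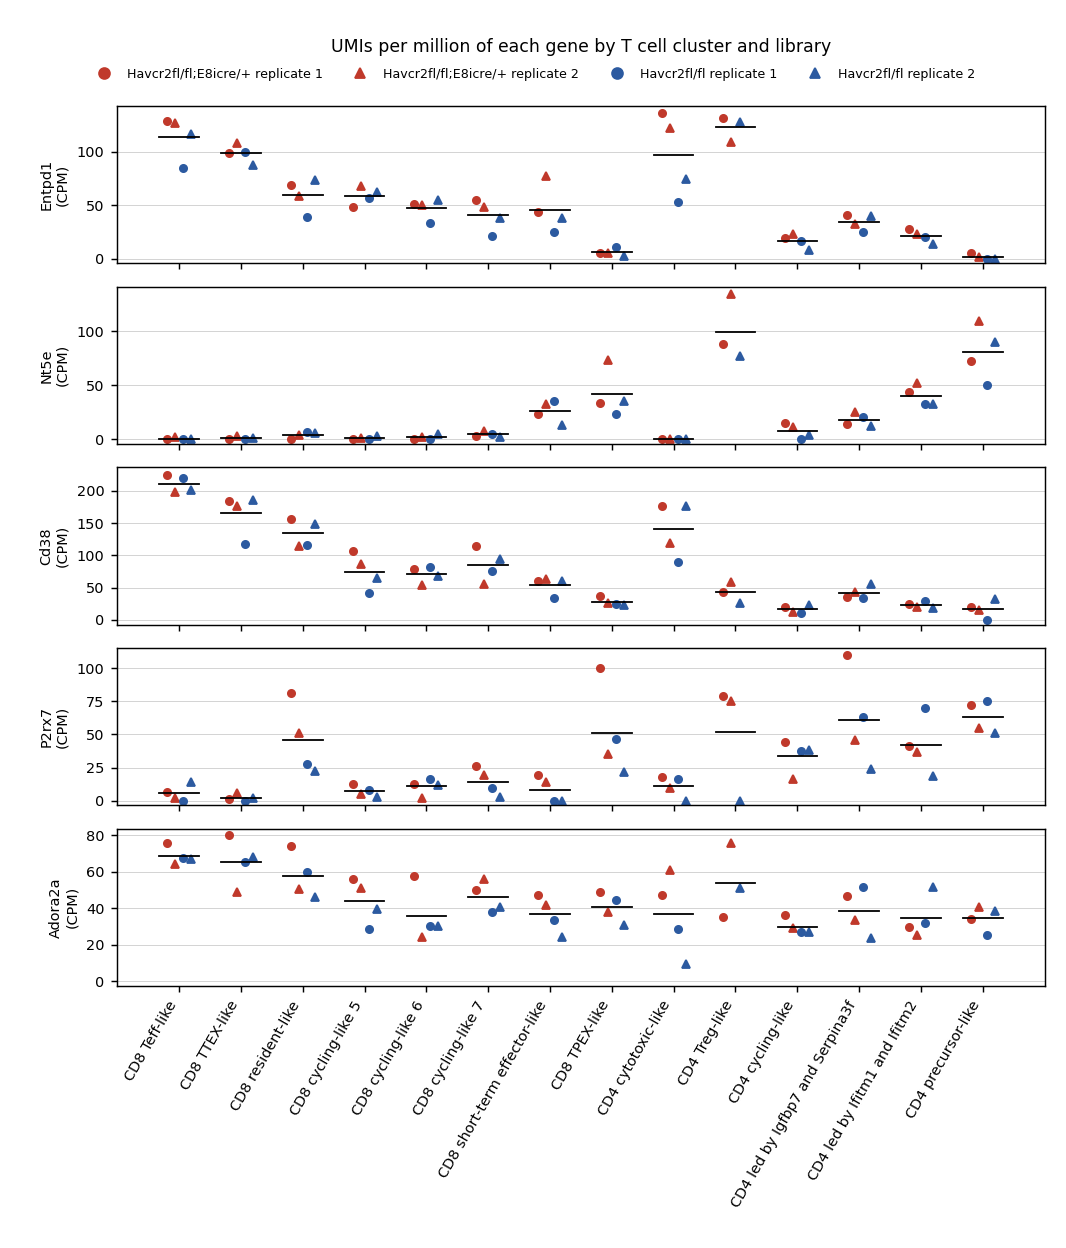
CPM of each of the 5 genes in 8 clusters of CD8 Tc and 6 clusters of CD4 Tc, with 1 point per library and the mean as a line. Entpd1 and Cd38 are low in the TPEX-like cluster (means of 5.73 and 28.4 CPM) and high in the Teff-like cluster (114 and 211 CPM), Nt5e and P2rx7 run the other way, and Adora2a means stay between 29.9 and 68.6 CPM in these clusters.

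P2rx7 (ENSMUSG00000029468, chr5:122643911-122691432, plus strand, GRCm38, overlapping the microRNA gene Mir8115) was found in precursor, resident and most CD4 states and was scarce in TTEX-like, Teff-like, short-term effector-like and cycling-like CD8 cells. The TPEX-like cluster had 100.3, 35.1, 46.6 and 21.5 CPM, and the resident-like cluster 80.9, 51.0, 27.6 and 22.4 CPM. The TTEX-like cluster had 1.17, 5.70, 0 and 2.06 CPM, and the Teff-like cluster 6.86, 2.38, 0 and 14.1 CPM. TPEX-like and resident-like values overlapped each other and lay above all values of the TTEX-like and Teff-like clusters. The 3 cycling-like CD8 clusters had means between 7.01 and 14.5 CPM. The interferon-stimulated-like CD8 cluster (36 cells) had 53.7 ± 54.3 CPM (SD, n = 3). Short-term effector-like cells, which shared Nt5e with TPEX-like cells, had 8.35 ± 9.90 CPM of P2rx7 (SD, n = 4), with no UMI in either Havcr2fl/fl library. In CD4 Tc, the precursor-like cluster had 63.5 ± 12.3 CPM and the cluster led by Igfbp7 and Serpina3f 60.6 ± 36.4 CPM, against 11 ± 8.09 CPM in the cytotoxic-like cluster (SD, n = 4 each). Treg-like cells had 78.9 and 75.5 CPM in the 2 Havcr2fl/fl;E8icre/+ libraries and no P2rx7 UMI in the 16 cells of Havcr2fl/fl replicate 2.

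Adora2a (ENSMUSG00000020178, chr10:75316877-75334784, plus strand, GRCm38) varied least between T cell states. Its means lay between 35.6 and 68.6 CPM over the 8 larger CD8 clusters and between 29.9 and 53.9 CPM over the 6 larger CD4 clusters. The Teff-like cluster, with 75.5, 64.4, 67.5 and 67.1 CPM, and the TTEX-like cluster, with 79.9, 49.0, 65.1 and 67.9 CPM, were the highest and overlapped. The TPEX-like cluster, with 48.9, 37.9, 44.5 and 31.0 CPM, lay below both, with its highest value just under the lowest TTEX-like value.

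Outside the T cell clusters, the 5 genes were at or below 4.35 CPM on average over all 4698 cells, against averages between 10.1 and 102 CPM in CD8 Tc and between 30.1 and 45.2 CPM in CD4 Tc. Some of these clusters stood higher, most of all for Entpd1. Neutrophil-like cells (248 cells, with S100a8, Camp and Ltf raised) had 60.3, 73.0, 50.5 and 72.9 CPM of Entpd1, the plasma-like cluster 47.5 ± 3.14 CPM and the dendritic-like cluster 58.3 ± 28.2 CPM (SD, n = 3 each). These Entpd1 values fell within the range of the T cell clusters. The dendritic-like cluster (79 cells with a median of 2327 UMIs) also had 39.6 ± 37.2 CPM of Cd38, 24.2 ± 35.0 CPM of P2rx7 and 17.4 ± 16.5 CPM of Adora2a (SD, n = 3 each), with the P2rx7 value resting on 11 UMIs in 2 cells. Its Cd38 and P2rx7 means, and the Cd38 mean of 22.6 CPM in neutrophil-like cells, lay within the range of T cell cluster means as well. Cd38 in neutrophil-like cells was 5.02, 4.42, 28.1 and 52.6 CPM. The genotypes did not overlap there, but the 2 lower values rest on few Cd38 UMIs. They come from 82 and 48 cells, with 597221 and 452187 UMIs of all genes. The difference was not tested, and how many genes separate in this way was not counted. P2rx7 was also measurable in basophil or mast-like cells at 13.6 ± 3.22 CPM (SD, n = 3) and in granulocyte-monocyte progenitor-like cells at 9.96 ± 1.73 CPM (SD, n = 4), while Adora2a was at or below 0.578 CPM on average in neutrophil-like, granulocyte-monocyte progenitor-like and basophil or mast-like cells. The largest erythroid-like cluster (1347 cells) was at or below 0.672 CPM for all 5.

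**Figure D2:**
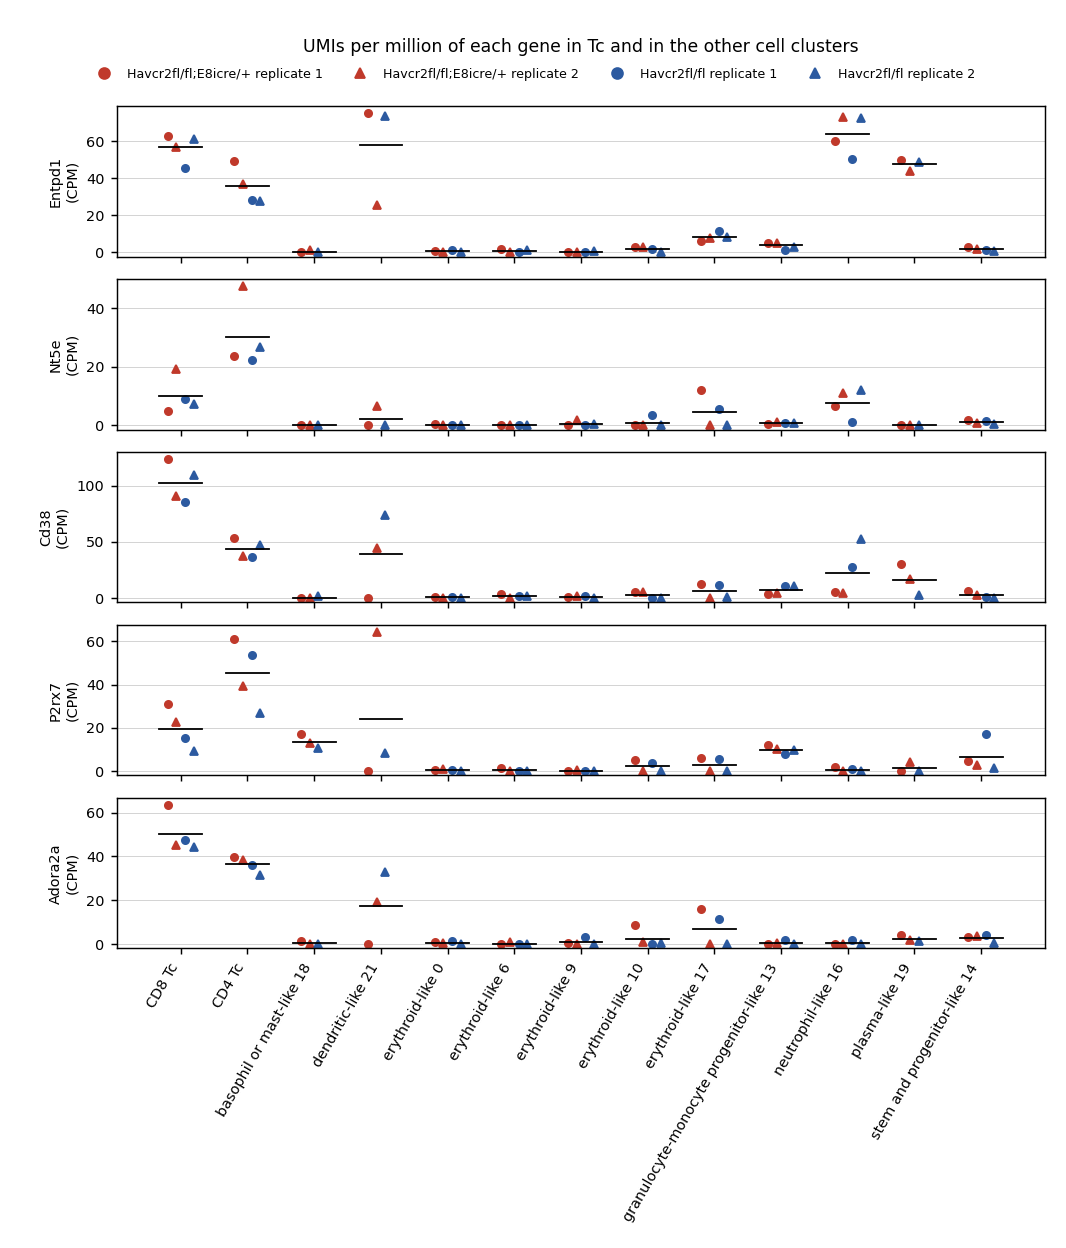
CPM of the 5 genes in CD8 Tc, CD4 Tc and the clusters outside the T cells, with 1 point per library and the mean as a line. Outside the T cells the highest means are those of Entpd1 in neutrophil-like (64.2 CPM), dendritic-like (58.3 CPM) and plasma-like (47.5 CPM) cells, followed by Cd38 in dendritic-like cells (39.6 CPM).

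Shares of cells with a UMI depend on depth, so each cell was also thinned to 2000 UMIs. Shallower cells were left out, 33, 10, 14 and 149 of the CD8 Tc and 19, 8, 7 and 54 of the CD4 Tc by library. In CD8 Tc, the thinned share of cells with a UMI averaged 10.9% for Entpd1, 2.12% for Nt5e, 19.0% for Cd38, 4.43% for P2rx7 and 10.3% for Adora2a. In CD4 Tc the shares averaged 7.39%, 5.61%, 8.71%, 7.28% and 8.05%, in the same order. Without thinning they were 25.1%, 5.03%, 40.0%, 9.16% and 26.0% in CD8 Tc and 14.6%, 11.7%, 16.3%, 16.5% and 17.1% in CD4 Tc. Erythroid-like cells were taken as a type that should lack these genes. The erythroid-like cluster nearest to Tc in depth (680 cells, median 4341 UMIs against 4802 in CD8 Tc and 4520 in CD4 Tc) had thinned shares of 0.301% for Entpd1, 0.209% for Cd38 and 0.197% for P2rx7, with no cell for Nt5e or Adora2a. Over all 5 erythroid-like clusters, the highest thinned shares, as means over libraries, were 0.735% for Adora2a and 0.714% for Nt5e. The Nt5e mean rests on 1 cell of 524, in a library where the share was 2.86%. The mean shares in CD8 Tc and CD4 Tc were above these background means for all 5.

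Because each library held both lineages, CD8 Tc and CD4 Tc were compared within mice. All 5 genes differed: Entpd1, Cd38 and Adora2a were higher in CD8 Tc, and Nt5e and P2rx7 were higher in CD4 Tc, where 24.8% of the 10324 genes tested differed, 12.9% higher and 11.9% lower in CD8 Tc. Values here and in the tests below are TMM-normalised CPM, scaled by edgeR for the composition of each sum. Cd38 stood at 123, 94.8, 88.6 and 113 in CD8 Tc against 50.02, 36.8, 36.7 and 47.5 in CD4 Tc, a log2 difference of 1.30 ± 0.07 (SE, adjusted p = 2.88e-08, edgeR). Entpd1 stood at 62.4, 59.6, 47.3 and 63.4 against 46.5, 36.8, 28.0 and 28.1, a log2 difference of 0.68 ± 0.10 (adjusted p = 0.000303, edgeR). Both genes were higher in CD8 Tc in 4 of 4 libraries and the 2 lineages did not overlap.

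Nt5e, the adenosine-forming enzyme, stood at 4.65, 20.1, 9.36 and 7.47 in CD8 Tc against 22.3, 47.0, 22.0 and 27.2 in CD4 Tc, a log2 difference of -1.57 ± 0.18 (adjusted p = 2.26e-05, edgeR). P2rx7 stood at 30.6, 23.9, 15.6 and 9.82 against 57.4, 38.8, 53.3 and 27.2, a log2 difference of -1.06 ± 0.15 (adjusted p = 0.000132, edgeR). Each was lower in CD8 Tc within every library, but the P2rx7 ranges of the lineages overlapped across libraries. The adenosine receptor gene Adora2a had the smallest difference, at 62.8, 47.1, 49.4 and 45.7 against 37.6, 38.0, 36.0 and 32.0, with a log2 difference of 0.51 ± 0.10 (adjusted p = 0.00164, edgeR). It too was higher in CD8 Tc in 4 of 4 libraries, with no overlap.

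**Figure D3:**
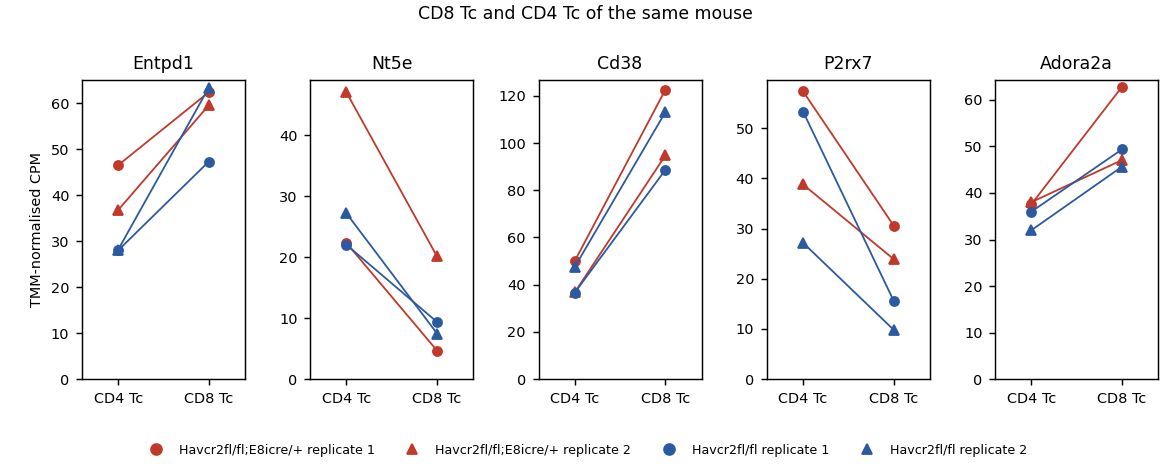
TMM-normalised CPM of the 5 genes in CD8 Tc and CD4 Tc, with the 2 values of each library joined. From CD4 Tc on the left to CD8 Tc on the right, all 4 lines rise for Entpd1, Cd38 and Adora2a and fall for Nt5e and P2rx7.

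Of 40 other genes of nucleotide and adenosine handling in the table, 16 passed the low-count filter in this comparison, with a median log2 difference of -0.03, against 0.01 over all genes tested. Higher in CD8 Tc were Enpp2 (log2 difference 1.6, adjusted p = 0.00121), which encodes autotaxin, Enpp4 (0.58, adjusted p = 0.0268), the ADP-ribosyltransferase gene Art2b (0.39, adjusted p = 0.00486) and the nucleoside transporter gene Slc28a2 (0.40, adjusted p = 0.0220), all by edgeR. The ATP-gated channel gene P2rx4 was lower (-1.17, adjusted p = 0.000553, edgeR). That is 4 higher and 1 lower. Others with at least 20 CPM on average in a lineage did not pass the threshold: Dpp4, which encodes CD26, had 55.6 CPM in CD8 Tc and 57.0 in CD4 Tc, P2ry10 40.6 and 45.5, the pannexin channel gene Panx1 33.5 and 30.7, the nucleoside transporter gene Slc29a1 22.6 and 28.2, the adenosine kinase gene Adk 15.6 and 20.6, and Enpp1 20.2 and 17.9. Art2b, which can act upstream of P2rx7, averaged 68.2 CPM in CD8 Tc and 54.5 in CD4 Tc but 1.20 CPM outside the T cell clusters.

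States were also compared by a single gene outside the 5, counted in the same cells, so that the clusters were not needed. TCF-1, encoded by Tcf7, is a factor of precursor exhausted Tc, and the study also links it to CD8+ memory. CD8 Tc with a Tcf7 UMI numbered 205, 240, 75 and 107, and had lower Entpd1 and Cd38 and higher Nt5e and P2rx7 than CD8 Tc without one. The 4 genes differed where 14.3% of 9666 genes tested did, 7.56% higher and 6.78% lower. Entpd1 stood at 9.68, 15.6, 3.57 and 2.42 with a Tcf7 UMI against 67.3, 73.3, 53.4 and 66.4 without, a log2 difference of -2.70 ± 0.22 (SE, adjusted p = 2.04e-07, edgeR). Cd38 stood at 39.6, 31.2, 37.5 and 21.7 against 129, 114, 95 and 117, a log2 difference of -1.79 ± 0.14 (adjusted p = 1.14e-07, edgeR). The groups did not overlap for either gene.

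In the same comparison Nt5e stood at 27.3, 54.4, 12.5 and 38.7 with a Tcf7 UMI against 1.34, 7.0, 8.61 and 4.26 without, a log2 difference of 2.85 ± 0.36 (adjusted p = 2.45e-05, edgeR). P2rx7 stood at 92.4, 38.8, 32.1 and 31.4 against 20.8, 17.7, 12.5 and 7.40, a log2 difference of 1.69 ± 0.19 (adjusted p = 8.68e-06, edgeR). These 2 genes did not overlap between the groups either, although in Havcr2fl/fl replicate 1 Nt5e rested on 7 UMIs in Tcf7-positive cells. Adora2a was lower with a Tcf7 UMI in 4 of 4 libraries, at 47.5, 40.4, 41.0 and 33.8 against 62.5, 47.8, 49.6 and 44.9, but did not pass the threshold (log2 difference -0.32 ± 0.13, adjusted p = 0.113, edgeR). Of 16 other genes of the list tested, Enpp2 (1.52, adjusted p = 0.00338), Dpp4 (0.62, adjusted p = 0.000904) and Adk (1.71, adjusted p = 1.91e-05) were higher and Art2b (-1.03, adjusted p = 4.20e-05) and Slc28a2 (-0.48, adjusted p = 0.0410) lower on the log2 scale by edgeR, with a list median of 0.06 against -0.00034 over all genes. Art2b and P2rx7, whose products can act together, thus differed in opposite directions between Tcf7-positive and Tcf7-negative CD8 Tc.

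Nt5e and P2rx7 were both higher beside Tcf7 RNA. For P2rx7 the upstream sequence is shown, with the core bases bound by TCF factors, CTTTGA or TCAAAG on the other strand, in capitals. RefSeq gives P2rx7 2 start sites in GRCm38.p6, and the 250 bases before each, on the plus strand from chr5:122643677-122643926 and chr5:122650133-122650382, read as follows:
P2rx7 first start: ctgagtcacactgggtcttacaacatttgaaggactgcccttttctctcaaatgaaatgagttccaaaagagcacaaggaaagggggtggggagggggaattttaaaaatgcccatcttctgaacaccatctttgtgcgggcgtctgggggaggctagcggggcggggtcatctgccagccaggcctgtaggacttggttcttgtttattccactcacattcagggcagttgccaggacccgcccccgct
P2rx7 second start: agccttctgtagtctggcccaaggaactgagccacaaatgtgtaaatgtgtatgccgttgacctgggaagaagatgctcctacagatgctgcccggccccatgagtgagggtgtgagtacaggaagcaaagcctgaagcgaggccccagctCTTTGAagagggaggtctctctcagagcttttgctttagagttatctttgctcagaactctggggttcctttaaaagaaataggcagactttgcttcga
The second window holds 1 match, 99 bases before the start, and the first none. Windows for 4 of the 5 genes were found, 6 in all, and those of Entpd1, Nt5e and Cd38 hold no match. Of all 32851 windows of this length, 13.8% hold one, so the match is a description of these letters. Binding of a TCF factor to any of these windows was not tested.

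The Foxp3 UMI, the mark of regulatory Tc, split CD4 Tc into 33, 57, 6 and 17 positive cells and the rest. Entpd1 and Nt5e, the 2 steps from ATP to adenosine, were both higher with Foxp3, where 7.84% of 6991 genes tested differed and 3.56% were higher. Entpd1 stood at 80.2, 91.4, 117 and 86.1 against 49.5, 35.5, 27.2 and 27.0, with no overlap, a log2 difference of 1.29 ± 0.29 (SE, adjusted p = 0.00175, edgeR). Nt5e stood at 60.2, 88.3, 78.2 and 51.6 against 22.5, 48.3, 21.9 and 28.1, again with no overlap, a log2 difference of 1.10 ± 0.32 (adjusted p = 0.0212, edgeR). The positive sums held between 5 and 30 Entpd1 UMIs and between 3 and 29 Nt5e UMIs per library. Without Havcr2fl/fl;E8icre/+ replicate 2 neither call held (adjusted p = 0.126 and 0.161, edgeR), and Nt5e was also lost without Havcr2fl/fl;E8icre/+ replicate 1 (0.164) or Havcr2fl/fl replicate 1 (0.0516). With cells thinned to equal depth both calls ended, at a log2 difference of 1.17 for Entpd1 (adjusted p = 0.134, edgeR) and 0.72 for Nt5e (adjusted p = 0.590, edgeR), and Nt5e also missed the threshold with DESeq2 (adjusted p = 0.0535) and with no low-count filter (adjusted p = 0.0544, edgeR), so that it was lost in 6 of 10 alternatives and Entpd1 in 2 of 10.

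Cd38, P2rx7 and Adora2a did not pass the threshold in Foxp3-positive CD4 Tc, with log2 differences of -0.14 ± 0.37, -0.11 ± 0.35 and 0.01 ± 0.36 (SE). Of 12 other list genes tested, P2ry10, a gene named after the P2Y receptors, was higher (log2 difference 1.66, adjusted p = 2.10e-06, edgeR). The median of the list was 0.46 against -0.05 over all genes.

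Whether single cells held both enzymes was counted as well. In the Treg-like cluster, 40 of 109 cells had an Entpd1 UMI, 27 an Nt5e UMI and 7 both. Entpd1 was thus found in 25.9% of Nt5e-positive and 40.2% of Nt5e-negative Treg-like cells. In CD8 Tc, 14 of 187 cells with an Nt5e UMI also had an Entpd1 UMI (7.49%), against 25.6% of those without Nt5e, and the share was lower beside Nt5e in each of the 4 libraries (5.88%, 8.16%, 11.1% and 3.57% against 27.5%, 31.1%, 27.0% and 19.0%). Over all libraries the Nt5e-positive cells were deeper, with medians of 5719 and 4731.5 UMIs, which was so in 3 of the 4 libraries. In the TPEX-like cluster only 15 of 572 cells had an Entpd1 UMI at all, none of the 111 Nt5e-positive cells and 3.25% of the others. There Nt5e was found in 22.8% of P2rx7-positive and 18.6% of P2rx7-negative cells, whose medians were 5510 and 5015.5 UMIs. By library the shares were 17.3%, 35.1%, 11.1% and 28.6% against 10.5%, 32.0%, 13.5% and 8.55%. The order was thus opposite in Havcr2fl/fl replicate 1, and Havcr2fl/fl replicate 2 had only 7 P2rx7-positive cells. In CD4 Tc, 8.44% of 225 Nt5e-positive cells had an Entpd1 UMI against 16.6% of the rest, but not in every library (5.45%, 9.92%, 14.8% and 0% against 20.8%, 17.3%, 14.5% and 9.28%), as the shares in Havcr2fl/fl replicate 1 were close and in the opposite order. Conversely, over all CD8 Tc, Entpd1 UMIs were found in 33.0% of Cd38-positive and 19.3% of Cd38-negative cells, whose medians were 5427 and 4403 UMIs. These shares pool clusters that differ in both genes. Within the TTEX-like cluster alone they were 40.9% and 35.8%. There the order was opposite in Havcr2fl/fl;E8icre/+ replicates 1 and 2, at 38.6% against 45.5% and 49.4% against 52.3%. In the Havcr2fl/fl libraries it was the same as over all CD8 Tc. The part of the mix of clusters in the pooled shares was not tested.

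CX3CR1 marks effector Tc that circulate. CD8 Tc with a Cx3cr1 UMI numbered 183, 137, 113 and 144, and had lower Cd38 and P2rx7, where 10.4% of 9240 genes tested differed and 3.91% were lower. Cd38 stood at 87.7, 63.8, 75.6 and 73.4 against 124, 98.8, 92.1 and 116, with no overlap, a log2 difference of -0.52 ± 0.09 (SE, adjusted p = 0.000315, edgeR). P2rx7 stood at 11.1, 18.6, 6.88 and 2.94 against 32.6, 24.4, 18.5 and 10.7, lower in 4 of 4 libraries with overlapping ranges, a log2 difference of -1.10 ± 0.23 (adjusted p = 0.00151, edgeR). Cx3cr1-positive cells were deeper in all 4 libraries. After thinning, Cd38 no longer passed (log2 difference -0.69, adjusted p = 0.0884) and P2rx7 fell below the low-count filter, and without Havcr2fl/fl;E8icre/+ replicate 1 P2rx7 had an adjusted p of 0.0723 (edgeR).

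Entpd1, Nt5e and Adora2a did not pass the threshold in Cx3cr1-positive cells, with log2 differences of -0.28 ± 0.12, 0.60 ± 0.24 and -0.22 ± 0.12 (SE). Nt5e was nonetheless higher in 4 of 4 libraries, at 5.96, 30.1, 11.8 and 8.81 against 4.34, 17.7, 8.37 and 7.02. Among 16 other list genes only Art2b passed (log2 difference -0.50, adjusted p = 0.00229, edgeR), with a list median of -0.15 against -0.01 over all genes.

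CD8 Tc with a Havcr2 UMI numbered 285, 38, 103 and 339, and had lower P2rx7 and Nt5e and higher Entpd1. They made up 18.5%, 3.95%, 21.2% and 26.2% of CD8 Tc. Havcr2 is the targeted gene, so in the Havcr2fl/fl;E8icre/+ libraries cells without a UMI may include deleted cells of any state. The split therefore need not mean the same in both genotypes. P2rx7 stood at 6.08, 3.0, 2.70 and 2.57 against 36.8, 24.8, 20.6 and 13, with no overlap, a log2 difference of -2.62 ± 0.23 (SE, adjusted p = 0.000119, edgeR), where 3.69% of 9537 genes tested differed, 1.63% higher and 2.07% lower. The positive sums held 13, 1, 3 and 4 P2rx7 UMIs. Nt5e was lower too, at 0, 0, 6.29 and 1.29 against 5.87, 21, 10.5 and 10.2 (log2 difference -2.39, adjusted p = 0.0343, edgeR), from 0, 0, 7 and 2 UMIs in the positive sums, and Entpd1 was higher, at 76.7, 72.1, 64.7 and 70.7 against 55.8, 58.6, 39.8 and 57.9, a log2 difference of 0.44 ± 0.10 (adjusted p = 0.0378, edgeR). The groups overlapped for Nt5e and did not for Entpd1.

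The P2rx7 call held in the 9 alternatives that could be fitted, while that of Entpd1 was lost in 6 of 10 and that of Nt5e in 3 of 9. Without Havcr2fl/fl;E8icre/+ replicate 1 the adjusted p was 0.248 for Entpd1 and 0.162 for Nt5e, without Havcr2fl/fl replicate 2 it was 0.127 and 0.203, and without Havcr2fl/fl replicate 1 it was 0.153 for Entpd1 (edgeR). The Entpd1 call was also lost with DESeq2 (adjusted p = 0.168) and both with the stricter cell filter (0.0885 for Entpd1 and 0.0576 for Nt5e, edgeR). Havcr2-positive cells were the deeper ones in all 4 libraries. With every cell thinned to equal depth Entpd1 had an adjusted p of 0.930 (edgeR), and P2rx7, with 1, 0, 1 and 0 UMIs left in the positive sums, and Nt5e, with 0, 0, 2 and 0, fell below the low-count filter and were not tested. Cd38 and Adora2a had log2 differences of 0.02 ± 0.09 and 0.11 ± 0.12 (SE), neither past the threshold. Of 16 other list genes, Enpp4 was higher (0.70, adjusted p = 0.0370, edgeR), with a list median of -0.06 against 0.0057 over all genes.

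**Figure D4:**
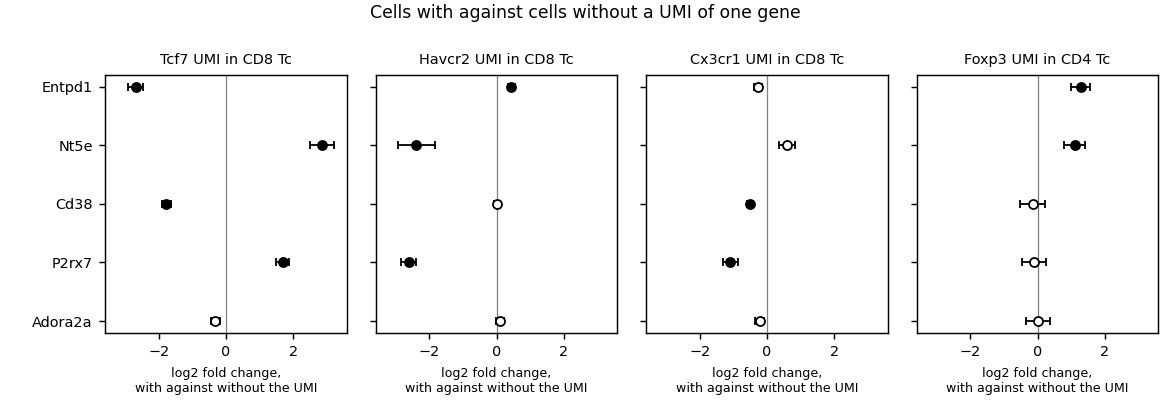
Log2 difference in the 5 genes between cells with and without a UMI of Tcf7, Cx3cr1 or Havcr2 (CD8 Tc) or Foxp3 (CD4 Tc), as points with bars for the standard error, filled where the adjusted p was under 0.05. The Tcf7 comparison has the widest span, from -2.70 for Entpd1 to 2.85 for Nt5e, and Adora2a passes in none of the 4.

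Between genotypes, none of the 5 genes passed the threshold in CD8 Tc, where 0.0275% of 10890 genes tested did (3 genes, with 278 at an unadjusted p under 0.05). P2rx7 had the largest difference, with 29.5 and 23.5 in the Havcr2fl/fl;E8icre/+ libraries against 15.3 and 9.6 in the Havcr2fl/fl libraries. The 2 genotypes did not overlap, which with 2 libraries against 2 has p = 0.333 by an exact permutation test. How many of all genes tested did not overlap was not counted. The log2 difference was 1.10 ± 0.27 (SE, adjusted p = 0.969, edgeR). It lay between 0.80 and 1.47 with each library left out in turn. With no low-count filter the adjusted p was 0.00306, the single alternative under which a member passed. The library labelled Havcr2fl/fl;E8icre/+ 1, whose Havcr2 was at control level, had the higher P2rx7 value of the pair, and without it the log2 difference was 0.92 (adjusted p = 1.00, edgeR), with the lone remaining library assumed to vary like the others.

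Entpd1, Nt5e, Cd38 and Adora2a had log2 differences of 0.13 ± 0.20, 0.53 ± 0.57, 0.10 ± 0.20 and 0.20 ± 0.20 (SE) in CD8 Tc, and each changed sign when 1 library was left out. Without the library labelled Havcr2fl/fl;E8icre/+ 1, that of Nt5e was 1.26 (adjusted p = 0.361, edgeR). For Nt5e the spread within the Havcr2fl/fl;E8icre/+ genotype, 4.50 and 19.8, exceeded the gap to the Havcr2fl/fl libraries, 9.20 and 7.31. The TPEX-like share of CD8 Tc was 10.8% and 22.1% in those Havcr2fl/fl;E8icre/+ libraries and 14.4% and 9.59% in the Havcr2fl/fl libraries, so the library with the most TPEX-like cells also had the most Nt5e, and their part in the value was not tested.

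In CD4 Tc, where E8i-driven Cre is not meant to act, none of the 5 passed either, against 0.0103% of 9671 genes (1 gene, with 304 at an unadjusted p under 0.05). Entpd1 had 47.5 and 37.8 in the Havcr2fl/fl;E8icre/+ libraries against 28.6 and 28.7, without overlap, a log2 difference of 0.57 ± 0.24 (SE, adjusted p = 1.00, edgeR) that was 0.40 without the library labelled Havcr2fl/fl;E8icre/+ 1. As in CD8 Tc, the share of all genes without overlap was not counted. P2rx7 had 58.6 and 39.9 against 54.5 and 27.7, with overlap, a log2 difference of 0.21 ± 0.32 (SE). Nt5e, Cd38 and Adora2a had log2 differences of 0.53 ± 0.37, 0.06 ± 0.25 and 0.15 ± 0.22 (SE). The genotype difference in CD8 Tc minus that in CD4 Tc, tested as an interaction, was 0.85 ± 0.24 on the log2 scale for P2rx7 (adjusted p = 0.877, edgeR) and between -0.39 and 0.06 for the other 4, of which none passed, as for 0.0184% of 10895 genes (2 genes, with 484 at an unadjusted p under 0.05).

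Within the TPEX-like cluster, 4 of the 5 genes passed the low-count filter and none the threshold, against 0.0147% of 6820 genes (1 gene, with 398 at an unadjusted p under 0.05). Nt5e had 33.6 and 77.3 in the Havcr2fl/fl;E8icre/+ libraries against 24.0 and 37.8, and P2rx7 had 99.6 and 36.8 against 48.0 and 22.7. Both overlapped between genotypes, with log2 differences of 0.93 ± 0.42 (SE, adjusted p = 0.839) and 0.84 ± 0.47 (adjusted p = 0.882) by edgeR. Without the library labelled Havcr2fl/fl;E8icre/+ 1 they were 1.35 (adjusted p = 0.156) and 0.049 (adjusted p = 1.00). Entpd1, with 4, 7, 5 and 1 UMIs, was not tested there. The stricter cell filter, used as an alternative, kept 79, 143, 63 and 85 of the 166, 212, 70 and 124 TPEX-like cells. The share kept was lowest in the library labelled Havcr2fl/fl;E8icre/+ 1. P2rx7 UMIs in the cluster fell from 80, 50, 22 and 9 to 32, 28, 20 and 8. None of the other list genes passed in any genotype comparison, of 17 tested in CD8 Tc, 15 in CD4 Tc, 13 in TPEX-like cells and 18 in the interaction. With 2 libraries per genotype, simulated data gave calls for part of the changes only: 42.5% of genes changed by a log2 of 1 were recovered in CD8 Tc, 25.5% in CD4 Tc and 22.5% in TPEX-like cells. At a log2 of 2 the shares were 89.5%, 95% and 95%. In each simulation 200 genes were changed at once, drawn at random from all genes tested, so these shares are not specific to the 5 genes. Adjusted p-values pass a threshold more readily where many genes change. The real comparisons called 3, 1 and 1 genes in CD8 Tc, CD4 Tc and TPEX-like cells, so the shares may overstate recovery there.

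**Figure D5:**
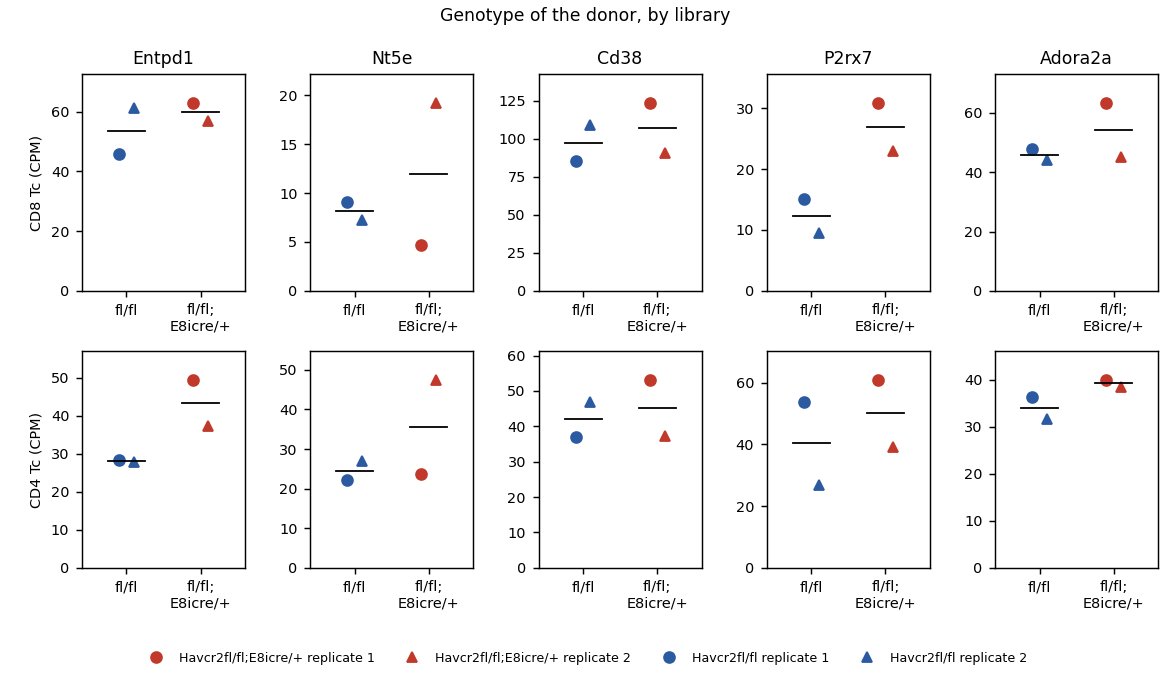
CPM of the 5 genes by genotype in CD8 Tc (upper row) and CD4 Tc (lower row), with 1 point per library and the mean as a line. P2rx7 in CD8 Tc (30.9 and 22.9 against 15.1 and 9.49 CPM) and Entpd1 in CD4 Tc (49.5 and 37.2 against 28.2 and 27.8 CPM) do not overlap between genotypes, and no gene of the 5 passed the threshold. With 2 libraries against 2, such a separation has p = 0.333 by an exact permutation test.

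The genes whose levels ran most like each of the 5 were sought over 16 T cell clusters, among 8289 genes, by Pearson's r of log2(CPM + 1). The clusters share libraries and differ in depth, so r is a description. Among the genes that ran most like Entpd1 were Il2rb (r = 0.93) and Prdm1 (0.88). Nt5e ran most like Il7r (0.95), Satb1 (0.90) and Iffo2 (0.86), and Cd38 most like Abr (0.93), Agpat3 (0.91) and Fasl (0.91). P2rx7 ran most like Ly6e (0.95), Cxcr3 (0.89) and Ly6a (0.88), and Adora2a most like Arhgap9 (0.89), Fuca2 (0.86) and Zcchc18 (0.86).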

How the data were processed

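Spleen libraries, 2 per genotype, were made with the 10x 3′ v3.1 chemistry. Per the labels, the authors used Cell Ranger 6.1.2 and mm10. The deposited matrices hold UMI counts per gene and cell, not normalised. Barcodes under 500 genes, under 1000 UMIs or over 10% mitochondrial UMIs were dropped (11632 stayed), and 125 doublets were removed by Scrublet in scanpy 1.11.5. Clusters (Seurat 5.3.0, resolutions 0.7, 0.3 and 0.2) were named "-like" after the fixed marker list with the largest share of its genes raised, with at least 3 raised by a log2 of at least 0.5 in at least 10% of cells; this scoring was set after the clusters were seen. UMIs were summed per library and class and tested with edgeR 4.0.16 (quasi-likelihood test, TMM, filterByExpr, Benjamini-Hochberg over all genes tested, threshold 0.05), with the library as a block in comparisons within mice, and DESeq2 1.42.0 as an alternative. Each SE was taken as the absolute log2 difference divided by the square root of the F statistic of its test, so it is approximate. The tests were checked on simulated data. Over 2 libraries against 2, an exact permutation test could not go below p = 0.333. The genes, gene lists and marker lists were chosen with earlier results of these data known. Genes named are the 5 in every comparison, other list genes past the threshold or with at least 20 CPM in CD8 Tc or CD4 Tc, and the 3 most alike by Pearson's r among genes with at least 20 CPM in a cluster, of which 1 is not reported here. A cluster entered a mean in libraries with at least 10 of its cells. Upper limits beside a count of 0 (3 counts) cover counting error only. Positions are from GENCODE vM21. Reads that fall in overlapping genes may be assigned to either.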

Additional observations from a re-analysis of the deposited data

How the results depend on the processing

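The calls for the 5 genes in CD8 Tc against CD4 Tc and by Tcf7 kept their direction and side of the threshold in every alternative that gave a value; thinned, Nt5e by Tcf7 and Nt5e and P2rx7 by Havcr2 fell below the low-count filter. Genes past the threshold numbered 3 between genotypes in CD8 Tc (90 with no low-count filter, 0 with the replicate block), 1 in CD4 Tc (0 with DESeq2 size factors, 5 with DESeq2, 51 with no filter, 0 with the stricter cell filter, with doublets set by the expected rate and with the replicate block), 1 in TPEX-like cells (37 with no filter, 0 with the stricter cell filter, 3 with the other doublet rule, 0 with the replicate block) and 2 in the interaction (59 with no filter, 4 with the stricter cell filter, 4 with the other doublet rule). Beside the counts of 0, an unadjusted p under 0.05 was reached by 204, 232 and 371 genes with the block in CD8 Tc, CD4 Tc and TPEX-like cells. DESeq2 called 1501 genes of 2558 in CD8 against CD4 Tc, 349 of 548 by Foxp3, 878 of 1386 by Tcf7, 467 of 961 by Cx3cr1 and 204 of 352 by Havcr2. With cells thinned to equal depth the calls by Foxp3, Tcf7, Cx3cr1 and Havcr2 were 292, 682, 234 and 102, and by Havcr2 they were 735 with no filter and 219 with the stricter cell filter. With 1 library left out, they ranged from 1 to 20, 4 to 29 and 4 to 63 between genotypes in CD8 Tc, CD4 Tc and TPEX-like cells, 6 to 47 in the interaction, 283 to 506 by Foxp3, 792 to 1515 by Tcf7 and 89 to 635 by Havcr2.

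Of the 5 genes, 1 passed between genotypes in CD8 Tc with no low-count filter (P2rx7). By Foxp3, 2 passed, 1 with DESeq2, 1 with no filter and 0 with thinned cells, and 0 to 2 with a library left out. By Cx3cr1, 2 passed, 0 thinned, and 1 to 2 with a library left out. By Havcr2, 3 passed, 1 with the stricter cell filter, 0 thinned, and 1 to 3 with a library left out. The replicate block changed no call for the 5 genes and left P2rx7 at 1.11 on the log2 scale in CD8 Tc; the labels give the numbers but no pairing.

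Differences not past the threshold that changed sign were, on the log2 scale, Adora2a in TPEX-like cells (-0.13 with the stricter cell filter) and by Foxp3 (-0.16 with DESeq2, -0.11 with no filter), and Cd38 by Foxp3 (0.42 thinned) and by Havcr2 (-0.0018 with no filter, -0.040 with the stricter cell filter). With a library left out, the genotype difference in CD8 Tc ranged from -0.058 to 0.35 for Entpd1, -0.87 to 1.26 for Nt5e, -0.092 to 0.28 for Cd38 and -0.014 to 0.38 for Adora2a. In CD4 Tc it ranged from -0.13 to 0.95 for Nt5e, -0.18 to 0.26 for Cd38 and -0.16 to 0.82 for P2rx7, and in TPEX-like cells from -0.068 to 0.40 for Adora2a. By Foxp3 the range was -1.14 to 0.30 for Cd38, -0.84 to 0.19 for P2rx7 and -0.59 to 0.18 for Adora2a, by Havcr2 it was -0.037 to 0.047 for Cd38, and in the interaction -0.72 to 0.30 for Nt5e and -0.18 to 0.26 for Adora2a. Levels taken as the mean over cells of CPM per cell moved by over 1 SD in 4 of 90 cases. The causes were not tested.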
